A study of Saccharomyces cerevisiae with 6 samples.

Results

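Mitochondrial ribosomal protein genes of budding yeast were compared between a strain with an artificial data-carrying chromosome (dChr) and a control strain. The genes were chosen by name alone: those whose standard name is MRPL, MRPS, MRP or RSM followed only by digits. The rule found 67 genes in the RefSeq annotation of the yeast genome, and 66 of them have a row in the deposited table of 7554 transcripts. RefSeq describes 38 of the 67 as proteins of the large (54S) subunit and 27 as proteins of the small (37S) subunit. The remaining 2 are RSM22, described as a methyltransferase, and MRP8, for which no ribosomal role is given. MRPL19, of the large subunit, is not analysed here. The dChr strain is yMH007 and the control strain is yMH104, which carries an empty plasmid in place of dChr, with 3 libraries each. Cultures of 50 ml were started at an optical density of 0.2 in uracil-free synthetic medium, kept at 30 °C and collected at 1.0 to 1.2. No further genotype of either strain is in the labels, nor whether replicate libraries are from separate cultures, so the p-values cover only the spread among these libraries, which may be technical.

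The mitochondrial ribosome makes the few proteins that the mitochondrial genome encodes, most of them membrane subunits of the respiratory chain and of ATP synthase. Its RNAs and 1 of its proteins, VAR1, are encoded in the mitochondrion, while all other proteins are made in the cytosol from nuclear genes and imported. Many of the proteins descend from bacterial ribosomal proteins, and others are found only in mitochondria. In yeast these genes are a classic example of nuclear genes whose products meet those of a second genome in 1 complex.

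The values are TPM, which is corrected for transcript length, so levels of different genes can be set side by side. Read depth cannot be recovered from this unit, and values therefore carry no counting interval. Between 41.7% and 49.5% of a library's TPM fell on protein-coding transcripts, and 20.3% to 34.9% on 643 assembled transcripts (named MSTRG) that have no coordinates. Reads of a gene can be credited to an assembled transcript at the same place, so low levels and zeros below are values of the listed row, not proof of low expression. Whether this moved any value was not tested. A mitochondrial genome was present in both strains: COB, its cytochrome b gene, was at 1184 ± 159 TPM in dChr and 1342 ± 163 in the control (SD, n = 3, as for every mean below). Markers of a cells were present as well, and 5 of 6 were called lower in dChr, among them STE2, the receptor for alpha-factor, at 174 ± 9.61 TPM against 375.6 ± 29.3. Of 4 markers of alpha cells, 2 reached a mean of 1 TPM and neither was called. SAG1 was at 11.1 ± 0.0704 TPM in dChr against 12.9 ± 1.14, and MF(ALPHA)2 at 9.08 ± 1.95 against 12.4 ± 2.42.

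Few mitochondrial ribosomal protein genes were called different between the strains. A test was made for the 55 genes whose average level reached 1 TPM, and 0 were called higher and 1 was called lower in dChr, MRP1 (limma on log2(TPM + 1), Benjamini-Hochberg adjusted p under 0.05 over all 5938 transcripts tested). Of all transcripts tested 13.4% were called, 4.19% higher and 9.16% lower, and of nuclear protein-coding genes 13.9%, 4.27% higher and 9.62% lower. Over all transcripts that is 249 higher against 544 lower, a split that became 507 against 638 with median-ratio scaling and 555 against 561 with quantile normalization. These shares are not matched for level: the median member stood at 4.00 TPM and the median nuclear protein-coding gene at 8.01 TPM. With a mean of at least 10 TPM required, 21.9% of all transcripts and 1 of 18 members were called. A low share of calls among members can therefore also come with their low level. At an unadjusted p under 0.05 there were 3 of the 55 genes (MRP1, RSM22 and MRPL20), where all transcripts gave 27.8%. The median log2 difference, dChr minus control, was -0.07 over the 55 genes, with quartiles at -0.22 and 0.13, and -0.04 over all transcripts, with quartiles at -0.30 and 0.16. By sign, 22 differences were positive and 33 negative, against 2638 and 3300 over all transcripts tested. For 5 genes the values of one strain lay wholly beyond those of the other, 4 with dChr below and 1 with dChr above. Such separation was seen in 34.1% of all transcripts tested (21.2% with dChr below and 12.9% above) and in 35.3% of nuclear protein-coding genes (21.8% below and 13.5% above).

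The intervals of these differences bound what could have gone unseen on the scale of TPM + 1. For 48 of the 55 genes the 95% interval lay within a 2-fold change of TPM + 1 in either direction. For 23 genes it lay within a 1.5-fold change of TPM + 1. In genes at a few TPM these limits allow a larger change of TPM itself. The 7 genes with an interval beyond the 2-fold limit were MRPL1, MRPL10, MRPL28, MRPL37, MRPL39, MRPL44 and MRP4, and 6 of these are of the large subunit. MRPL44, a protein found only in mitochondrial ribosomes and the single member with 2 coding exons, had the widest interval, from -1.43 to 1.37. Data were also simulated at the same size, with 200 transcripts of any level changed on the log2(TPM + 1) scale. The test recovered 28.8% of 1.5-fold and 68.1% of 2-fold changes there, so such a change in a single gene could be missed. These are not rates for the members, which were not simulated apart, nor for the test on the data. The simulation gave 128 calls and the data 793, so the adjustment demanded a smaller unadjusted p in the simulation.

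**Figure D1:**
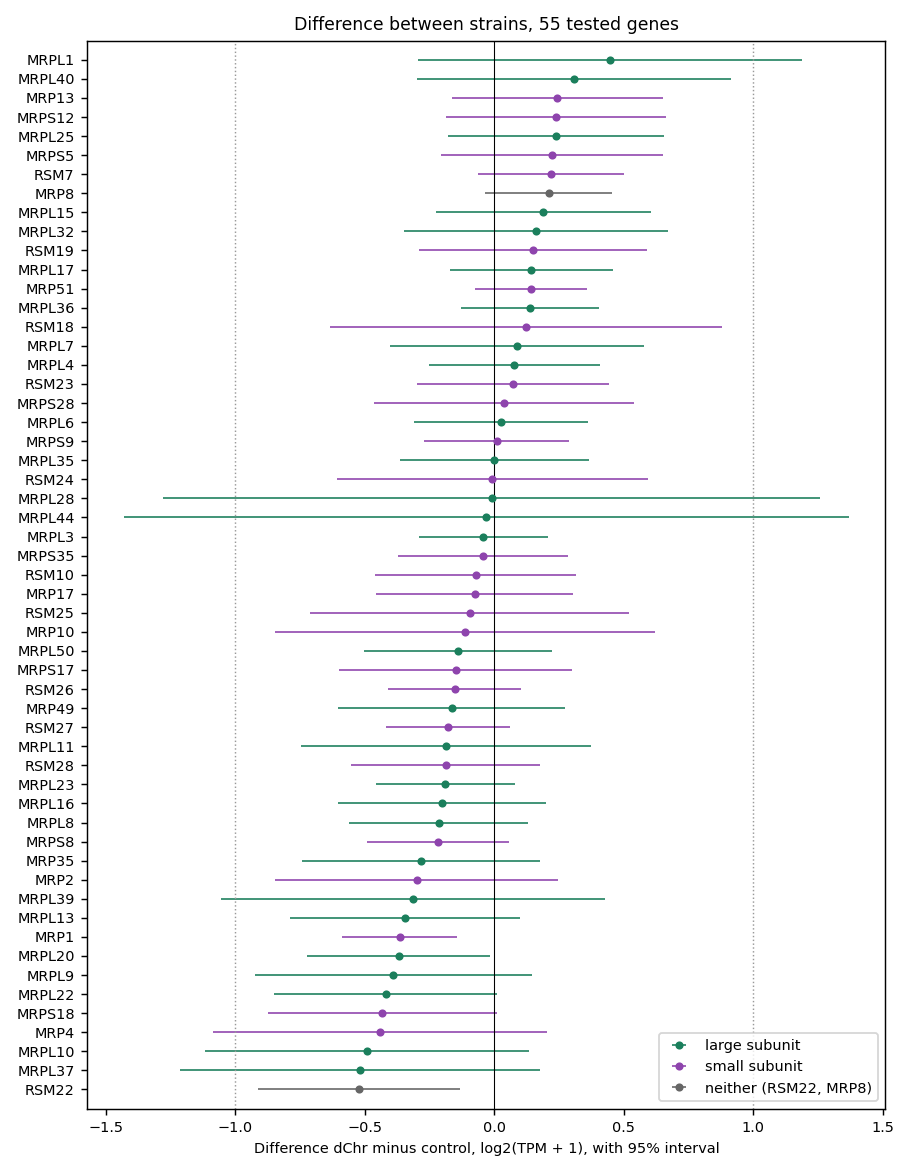
Each point is the difference between the strains of 1 tested gene, dChr minus control on the log2(TPM + 1) scale. Bars are its 95% interval from limma, colours give the subunit, and dotted lines mark a 2-fold change of TPM + 1. In low genes this is a larger change of TPM. All 55 points lie between -0.52 (RSM22) and 0.45 (MRPL1), and most intervals include 0.

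MRP1, the called gene, encodes a small-subunit protein found only in mitochondria and related to iron and manganese superoxide dismutases. It lies on chromosome IV, 1169178 to 1170143 of the R64 reference, as a single coding exon. Its level was 16.6, 14.9 and 16.5 TPM in dChr libraries 1, 2 and 3 and 20.8, 22.2 and 19.6 TPM in control libraries 1, 2 and 3. The strains did not overlap, with every control library above every dChr library. The difference was -0.37 ± 0.09 (SE), with an interval from -0.59 to -0.14 and a limma adjusted p of 0.0492. The call stood at the edge of the threshold: it was held in 2 of 16 alternative settings and lost in 14, including the removal of any single library (adjusted p from 0.0735 to 0.154). RSM26, the other small-subunit protein related to superoxide dismutases, was at 40.6 ± 4.93 TPM in dChr and 45.0 ± 2.17 in the control (limma adjusted p = 0.414).

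RSM22 had the most negative difference of the 55. The gene, on chromosome XI from 159456 to 161342, encodes a methyltransferase-like protein first found with the small subunit. It was at 1.49, 1.63 and 1.66 TPM in the dChr libraries and at 2.51, 3.30 and 2.42 TPM in the controls. These groups did not overlap, but the difference of -0.52 ± 0.16 was not called (limma adjusted p = 0.0917). It was called lower with median-ratio scaling, without an intensity trend, and without mitochondrial, non-coding and assembled transcripts (adjusted p = 0.0497, 0.0439 and 0.0285, in a range of 0.0285 to 0.249 over its alternatives).

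MRPS18, the mitochondrial form of the ribosomal protein uS11 and on chromosome XIV from 58155 to 58808, is among the most abundant of these transcripts. It was at 29.4, 33.8 and 28.6 TPM in dChr and at 31.0, 49.2 and 46.8 TPM in the control. Control library 1 stood with the dChr libraries and the other controls stood above them, so the groups overlapped. The difference was -0.43 ± 0.18 (limma adjusted p = 0.19). It was called in 2 alternatives, at -0.64 without control library 1 and at -0.52 without mitochondrial, non-coding and assembled transcripts (adjusted p = 0.0251 and 0.0405, in a range of 0.0251 to 0.374 over its alternatives). MRPL22, the uL22 protein that in bacteria lines the exit tunnel of the growing chain, was at 2.47, 1.64 and 1.58 TPM in dChr and at 2.51, 3.07 and 2.97 TPM in the control. It did not overlap between strains by a narrow margin, dChr library 1 against control library 1, and was not called (adjusted p = 0.19). MRPL20, found only in mitochondria, was at 8.64 ± 1.57 TPM in dChr against 11.4 ± 1.17, with overlapping libraries (adjusted p = 0.16).

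The promoters of these genes were read from the R64 reference, and 6 short motifs were searched on both strands of the 250 bases before each start codon. The letters TCA, 6 bases of any kind and ACG, the core recognised by the general regulatory factor Abf1, was in 18 of 67 promoters (26.9%), and in 12.9% of all 6001 promoters of nuclear protein-coding genes. TTACCCG, recognised by Reb1, was in 10 of 67 (14.9%) against 7.03% of all, and no member held both. AATTTT, a growth-linked element known from the genes of cytosolic ribosomal proteins and ribosomal RNA processing, was in 37.3% of these promoters, 48.6% of all promoters and 52.6% of those of cytosolic ribosomal proteins. AAAATTTT, which contains AATTTT, was in 2.99% against 8.65% of all, GATGAG in 14.9% against 17.0%, and CCAAT, the site of the Hap complex, in 29.9% against 35.4%. A match describes letters, not binding. Genes with the Abf1 motif had a median difference of -0.17 (14 tested) and those without -0.04 (41 tested). For the Reb1 motif the medians were -0.11 with it (9 tested) and -0.04 without (46 tested). Whether either motif goes with the difference was not tested.

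The following stretches run 5′ to 3′ on the gene's strand and cover the first 150 of the 250 bases before the start codon. They were picked from the 18 of 67 members that hold the Abf1 motif, and RSM26, MRPL6 and MRP8, also abundant, hold no match. Shown are the called gene (MRP1), 2 of the most abundant members (MRPS18 and MRP51) and the member with the lowest level (MRPS16). Capitals mark the Abf1 motif, which is on the opposite strand in the first 3 and on the gene's strand in MRPS16. In 16 of 19 matches among the members the motif began 100 to 200 bases before the start codon.
MRP1 (chrIV:1168928-1169077, plus strand): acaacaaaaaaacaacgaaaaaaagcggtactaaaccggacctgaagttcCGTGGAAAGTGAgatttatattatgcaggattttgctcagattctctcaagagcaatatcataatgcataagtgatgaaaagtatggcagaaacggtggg
MRPS18 (chrXIV:57905-58054, plus strand): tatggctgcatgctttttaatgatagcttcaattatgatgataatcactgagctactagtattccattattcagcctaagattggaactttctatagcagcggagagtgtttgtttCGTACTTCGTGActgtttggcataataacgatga
MRP51 (chrXVI:326378-326527, plus strand): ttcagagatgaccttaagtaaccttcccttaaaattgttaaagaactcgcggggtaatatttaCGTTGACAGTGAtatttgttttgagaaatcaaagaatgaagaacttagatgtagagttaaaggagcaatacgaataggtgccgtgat
MRPS16 (chrXVI:529451-529600, minus strand): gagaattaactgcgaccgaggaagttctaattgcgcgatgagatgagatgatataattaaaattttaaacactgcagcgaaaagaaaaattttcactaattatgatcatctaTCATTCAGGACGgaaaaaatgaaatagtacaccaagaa

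Of the 25 small-subunit genes tested 1 fell, MRP1, and the median difference was -0.07. The genes were ordered by where their bacterial relatives act. At the decoding centre, MRPS12 (uS12) was at 2.76 ± 0.231 TPM in dChr against 2.21 ± 0.566 in the control (difference 0.24, interval -0.18 to 0.66). RSM7 (uS7), RSM10 (uS10), MRPS9 (uS9), RSM19 (uS19) and MRP2 (uS14) belong to the head of the subunit, and their differences ran from -0.30 in MRP2 to 0.22 in RSM7. RSM7 was at 13.0, 13.8 and 12.0 TPM in dChr and at 10.8, 12.4 and 9.72 in the control, an overlap of 1 library on each side, and it was not called (limma adjusted p = 0.286). It was called higher under median-ratio scaling and under quantile normalization (adjusted p = 0.0455 and 0.0265, in a range of 0.0265 to 0.517). MRPS9 was level between the strains, at 29.3 ± 1.24 TPM in dChr and 29.3 ± 4.24 in the control.

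Elsewhere in the small subunit, the platform and body proteins spread to both sides of 0. MRP4 (uS2) was at 6.84, 6.05 and 4.27 TPM in dChr and at 8.23, 11.4 and 5.40 in the control, overlapping, with a difference of -0.44 and an interval from -1.09 to 0.20. It was -0.28 without dChr library 3, -0.21 without control library 2 and -0.69 without control library 3. MRP4 overlaps another annotated gene, and without a stated strand setting reads of the pair cannot be told apart. MRPS5 (uS5), MRPS8 (uS8), MRPS17 (uS17) and MRPS28 (uS15) had differences of 0.22, -0.22, -0.15 and 0.04. MRP51 (bS1), which yeast needs to translate its mitochondrial messages, was at 31.5 ± 1.64 TPM in dChr and 28.4 ± 1.94 in the control. Its interval, from -0.07 to 0.36, was among the narrowest. MRP17 (bS6) was at 27.1 ± 3.26 against 28.8 ± 5.60 TPM.

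The 10 small-subunit genes for proteins found only in mitochondria had a median difference of -0.10. Of their differences 8 were negative and 2 positive, where all transcripts tested gave 3300 and 2638. RSM23, the relative of the human death-associated protein DAP3, had one of the positive differences, at 10.1 ± 0.186 TPM in dChr against 9.71 ± 2.20 (0.07). The other was MRP13, at 4.09 ± 0.731 against 3.29 ± 0.532 TPM (0.24). RSM27 was at 6.36, 6.42 and 6.94 TPM in dChr and at 7.13, 7.97 and 7.62 in the control, so its libraries did not overlap, and it was not called (limma adjusted p = 0.308). RSM24, RSM25, RSM28, MRPS35 and MRP10 lay between -0.19 and -0.01. MRP10, a small cysteine-rich protein, varied most among them, from 1.66 to 4.95 TPM within dChr alone.

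Of the 28 large-subunit genes tested 0 were called by limma and 1, MRPL20, was at an unadjusted p under 0.05. There were 11 positive and 17 negative differences (2638 and 3300 over all transcripts tested), with a median of -0.09. They ran from -0.52 to 0.45, where those of the small subunit ran from -0.44 to 0.24, and whether the spread differed between subunits was not tested. Around the exit tunnel of the bacterial ribosome sit the relatives of MRPL22, MRPL4 (uL29), MRP20 (uL23) and MRPL40 (uL24). MRPL4 was at 11.4 ± 1.75 TPM in dChr against 10.7 ± 1.20, and MRPL40 at 3.18 ± 0.923 against 2.40 ± 0.892. MRP20 was below the level tested. MRPL1 (uL1), of the stalk at the exit site for transfer RNA in bacteria, had the most positive difference of all: it was at 1.76, 2.89 and 1.401 TPM in dChr and at 0.660, 2.12 and 0.964 in the control. These values overlapped, and the interval ran from -0.29 to 1.19. The difference was 0.25 without dChr library 2, 0.26 without control library 1 and 0.71 without control library 2. MRPL11 (uL10), whose bacterial relative carries the factor-binding stalk, was at 6.03 ± 0.728 against 7.24 ± 2.53 TPM.

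Core proteins of the large subunit included MRPL9 (uL3), at 4.06 ± 1.09 TPM in dChr and 5.61 ± 1.30 in the control, and MRPL6 (uL6), at 25.24 ± 1.32 and 25.02 ± 4.57. MRPL16 (uL16), MRPL23 (uL13), MRPL7 (uL5) and MRPL10 (uL15) had differences of -0.20, -0.19, 0.09 and -0.49. MRPL10 was steady in dChr, between 1.88 and 2.23 TPM, while its control libraries stood at 4.58, 3.70 and 1.88. The third control library therefore lay with the dChr libraries. The difference was -0.77 without control library 3 (limma adjusted p = 0.0527) and -0.29 without control library 1 (adjusted p = 0.533), the ends of the range when a library was left out. MRPL32 (bL32), a substrate of the mitochondrial m-AAA protease, was at 2.08 ± 0.168 TPM in dChr against 1.80 ± 0.688.

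Among large-subunit genes for proteins found only in mitochondria, MRPL37 was at 2.59, 1.99 and 3.48 TPM in dChr and at 6.77, 2.97 and 3.56 in the control. Control library 1 stood above the other libraries, and the difference of -0.52 had an interval from -1.21 to 0.18. Without that library the difference was -0.23. MRPL13 was at 5.62 ± 0.883 against 7.47 ± 1.78 TPM and MRPL25 at 10.8 ± 2.14 against 8.94 ± 1.55. Other genes were level: MRPL3, which carries a fold of the RNase III family, was at 12.2 ± 1.33 against 12.5 ± 0.0960 TPM, and MRPL35 at 12.8 ± 1.54 against 12.9 ± 2.19. MRPL17 was the single gene with every dChr library above every control library, at 2.91 to 3.11 TPM against 2.41 to 2.85, and it was not called (limma adjusted p = 0.531).

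Levels of these transcripts spread over a wide range although their proteins meet in 1 particle. The median gene stood at 4.00 TPM over the 6 libraries, against 8.01 TPM for nuclear protein-coding genes as a whole. In the small subunit RSM26 was highest at 42.8 TPM, followed by MRPS18 at 36.5, MRP51 at 29.9 and MRPS9 at 29.3. The order of neighbours in this list is not resolved, since MRPS18 exceeded RSM26 in control libraries 2 and 3, MRP51 exceeded MRPS18 in dChr libraries 1 and 3, and the libraries of MRP51 and MRPS9 overlapped. MRPL6 led the large subunit at 25.1 TPM, above MRPL23 at 15.04, MRPL8 at 13.5 and MRPL35 at 12.9, and the last 3 overlapped in their libraries. The 10 highest genes held 49.9% to 53.4% of the summed TPM of both subunits in each library. Median levels were 5.35 TPM for genes whose protein has relatives in every domain of life (26 genes), 2.07 for those with bacterial relatives (14 genes) and 4.00 for those found only in mitochondria (24 genes). Genes with a coding length of at most 699 bases had a median of 3.56 TPM and longer ones 4.32.

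**Figure D2:**
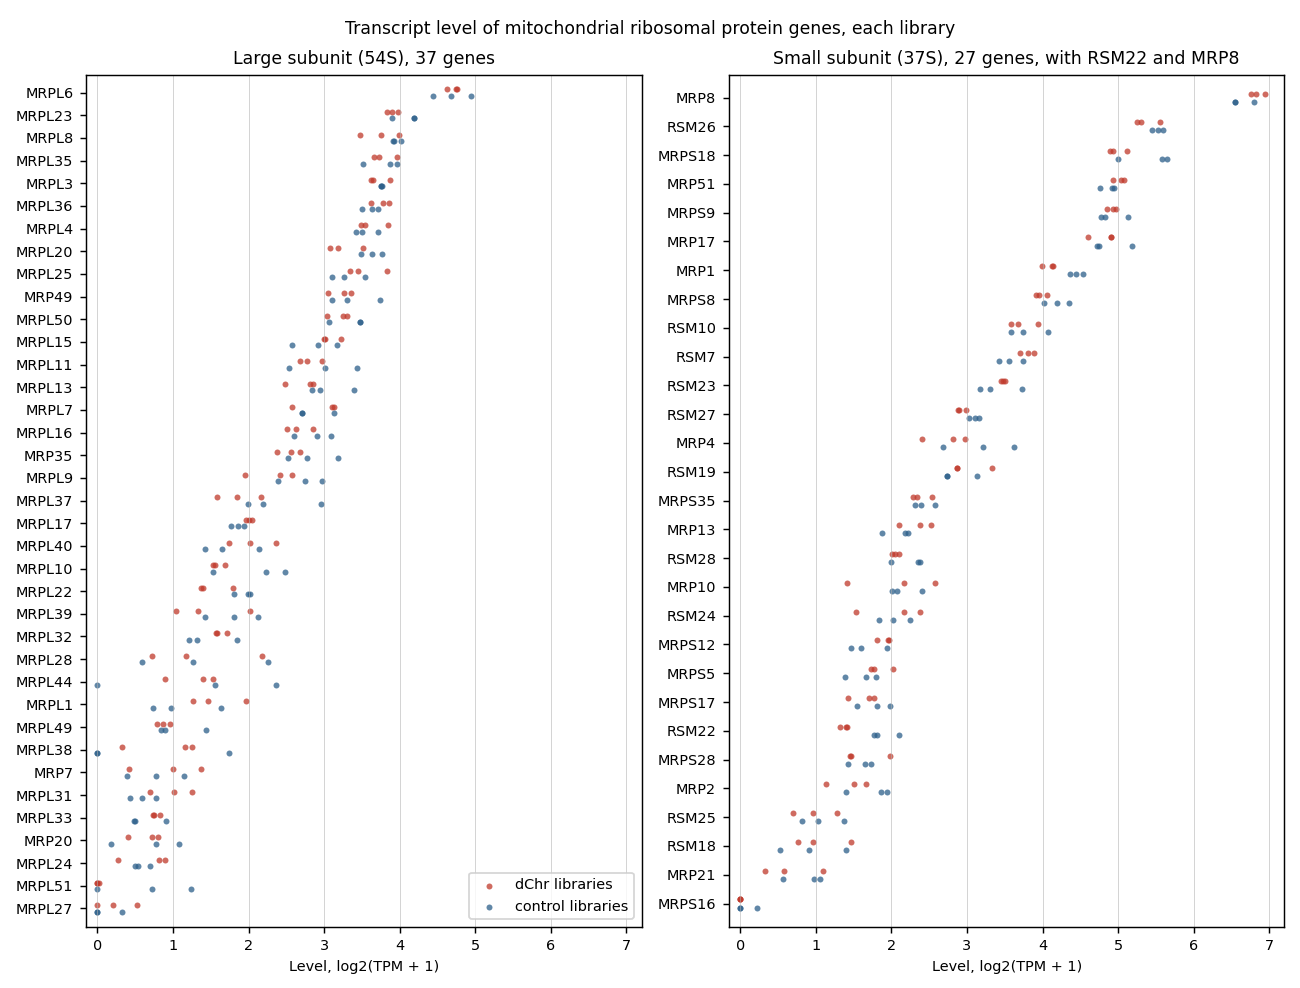
Each point is the level of 1 gene in 1 library on the log2(TPM + 1) scale, dChr in red and control in blue, with genes ordered by mean level within each panel. Levels run from 0 to near 30 TPM in the large subunit and to near 50 TPM in the small subunit, MRP8 stands apart at the top, and the colours overlap for most genes.

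At the bottom of this range 11 of the 66 genes were below a mean of 1 TPM and were not tested, 9 of the large subunit and 2 of the small. That is 16.7%, against 13.1% of nuclear protein-coding genes. They were MRP20, MRP21, MRP7, MRPL24, MRPL27, MRPL31, MRPL33, MRPL38, MRPL49, MRPL51 and MRPS16. Libraries listed at 0 occurred in 5 genes. MRPS16 (bS16) was listed at 0 in 5 libraries and at 0.166 TPM in control library 3. MRPL51, which overlaps another annotated gene, was at 0.0141 TPM in dChr library 1 and at 0 in dChr libraries 2 and 3, and at 0, 1.36 and 0.655 TPM in the controls. The values are so low that a difference between strains was not detectable. MRP20 was at 0.325, 0.748 and 0.657 TPM in dChr and at 1.11, 0.706 and 0.131 in the control, MRP21 (bS21) averaged 0.733 TPM and MRPL24 (bL28) 0.551 TPM over all libraries. Just inside the limit stood RSM18 (bS18), at 1.06 TPM with a difference of 0.12, and RSM25, at 1.06 TPM with -0.09, while MRPL49 at 0.974 TPM stood just outside.

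MRPL38 (uL14) was at 1.37, 1.23 and 0.258 TPM in dChr and at 2.33, 0 and 0 TPM in the control. MRPL27 was at 0.432, 0 and 0.155 TPM in dChr and at 0.252, 0 and 0 in the control. The fifth gene with a zero, MRPL44, was at 0.853, 1.65 and 1.89 TPM in dChr and at 4.12, 0 and 1.94 in the control. A zero next to 4.12 TPM in the same strain can be a failed estimate. Such zeros are not particular to these genes: 410 of 5848 nuclear protein-coding genes were listed at 0 in at least 1 library.

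Summed over each subunit, the levels were close between strains. The 37 large-subunit genes summed to 206, 209 and 199 TPM in the dChr libraries and to 207, 244 and 205 TPM in the control libraries. The 27 small-subunit genes summed to 265, 293 and 272.5 TPM in dChr and to 273, 339 and 289.6 TPM in the control. Both sums overlapped between strains, and control library 2 was the highest for each. The same library held the highest value of 27 of the 64 genes, against 4 to 13 for each of the others. Without it the log2 ratio of the summed levels moved from -0.10 to -0.01 in the large subunit and from -0.12 to -0.02 in the small subunit. The small subunit exceeded the large by a ratio of 1.35 ± 0.0609 in dChr and 1.37 ± 0.0487 in the control.

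As a share of all nuclear protein-coding TPM the same genes did separate. Both subunits together took 0.108%, 0.106% and 0.105% in the dChr libraries and 0.117%, 0.130% and 0.116% in the control libraries. Every control library lay above every dChr library, by a ratio of the means of 0.881 (dChr over control). The summed TPM of the same genes gave a ratio of 0.928, and the share differs from this only by its denominator. Protein-coding transcripts, here with the mitochondrial ones included, took 44.45%, 49.5% and 46.1% of all TPM in the dChr libraries. They took 41.7%, 46.4% and 44.3% in the controls, and the part of this in the share was not tested. The mean was lower in dChr on both scales, and the strains were separate on the second alone. A like rescaling, without mitochondrial, non-coding and assembled transcripts, gave median differences of -0.12 for the members and -0.11 for all transcripts tested. There 926 transcripts were called lower and 247 higher, so lower values on such a scale were not particular to these genes. With quantile normalization the log2 ratio of the summed levels was 0.03 in the large subunit and -0.01 in the small subunit.

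**Figure D3:**
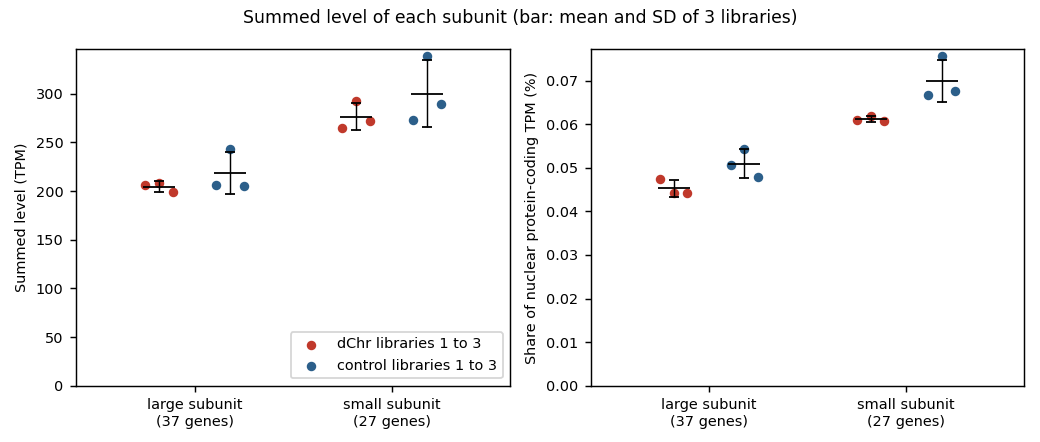
Points are the summed TPM of the large-subunit and small-subunit genes in each library (left) and the same sums as a percentage of nuclear protein-coding TPM (right); bars are the mean and SD of 3 libraries. On the left the strains overlap, with control library 2 highest, and on the right the control libraries lie above the dChr libraries.

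MRP8 shares the name but stood apart from the ribosomal proteins. It encodes a protein of unknown function once taken for a ribosomal protein, at chromosome XI 178515 to 179174. Its level of 106 TPM was the highest of the 66 genes. It was at 112, 122 and 107 TPM in dChr and at 92.5, 109.9 and 92.9 TPM in the control. Control library 2 lay above dChr library 3, so the strains overlapped. The difference of 0.21, with an interval from -0.03 to 0.45, was not called (limma adjusted p = 0.24), and it was called higher under median-ratio scaling and under quantile normalization (adjusted p = 0.0135 and 0.0216, in a range of 0.0135 to 0.482).

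Neighbouring genes were examined because 38 of the 67 genes have an upstream neighbour on the opposite strand, with which they share an intergenic region. Of 57 tested upstream neighbours 0 rose and 4 fell (7.02%, against 13.4% of all transcripts), and these were named after their values were seen. IMP3, a component of the machinery that processes ribosomal RNA of the cytosolic ribosome, diverges from MRPL6 over 250 bases. IMP3 fell from 9.07 ± 0.738 to 4.40 ± 0.857 TPM (log2 difference -0.91 ± 0.15, limma adjusted p = 0.0112), while the difference of MRPL6 was 0.03 with an interval from -0.31 to 0.36. RRP12, a factor for export of ribosomal subunits, diverges from MRPS16 and fell from 39.6 ± 6.40 to 19.3 ± 4.01 TPM (adjusted p = 0.0171). GCV2, of the glycine cleavage system, diverges from MRPS17 and fell by 0.59, and ADH5, which lies upstream of MRPS9 on the same strand, fell by 2.15. The stretch shared by MRPL6 and IMP3 is shown on the strand of MRPL6, as the 90 bases that begin 190 bases before its start codon, with GATGAG, the core of the PAC element of ribosome biogenesis genes, in capitals.
MRPL6 (chrVIII:393384-393473, minus strand): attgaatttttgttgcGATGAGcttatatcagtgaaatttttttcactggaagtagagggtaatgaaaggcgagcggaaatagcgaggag

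The promoter stretch of MRPS16 printed above, part of the region between it and RRP12, also holds GATGAG and AAAATTTT in its lower-case letters. MRPL6 and MRPS16 are among the 10 members with GATGAG. The others are MRP13, MRPL15, MRPL32, MRPL33, MRPL44, MRPL51, RSM19 and RSM22, and their upstream neighbours were tested and not called. The promoters of MRPS17 and MRPS9, whose neighbours GCV2 and ADH5 fell, hold no GATGAG in the 250 bases searched. Whether the motif goes with the falls of neighbours was not tested.

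Other genes of mitochondrial protein synthesis were compared as lists, by their counts and medians. To be set beside each list here and below, 13.4% of all transcripts tested were called, 4.19% higher and 9.16% lower. At an unadjusted p under 0.05 (limma) all transcripts gave 27.8%, and their median difference was -0.04. Of 11 tested mitochondrial ribosomal proteins under other names, 0 were called, and 2 were at an unadjusted p under 0.05 (limma), with a median difference of -0.07. MRX14, of the large subunit, was at 53.2 ± 1.84 TPM in dChr against 47.2 ± 1.89, and MNP1, the relative of bacterial L7/L12, at 20.4 ± 5.40 against 26.8 ± 3.43. Of 10 genes for assembly of the ribosome and modification of its RNA, 1 fell and 0 rose, with a median of -0.19. That gene was MRM1, which methylates the large mitochondrial ribosomal RNA: it was at 17.3, 16.3 and 17.3 TPM in dChr and at 28.9, 36.0 and 33.3 in the control, far apart (-0.91 ± 0.10, adjusted p = 0.00334). Of 13 translation factors and transfer RNA modifiers 2 fell and 0 rose, with a median of 0.06. Both act on mitochondrial transfer RNA: MTO1 fell by 0.90 (from 7.65 ± 1.96 to 3.57 ± 0.262 TPM, adjusted p = 0.0204) and SLM3 by 0.48 (from 5.83 ± 0.274 to 3.90 ± 0.220 TPM, adjusted p = 0.0348).

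Of 13 mitochondrial aminoacyl-tRNA synthetases 0 were called by limma, with 2 at an unadjusted p under 0.05 and a median of -0.02. MSK1, for lysine, was at 20.6 ± 2.55 against 20.3 ± 4.05 TPM, and MST1, for threonine, at 15.4 ± 0.343 against 16.6 ± 3.23. Of 18 translational activators and message-specific factors, with a median of -0.03, 1 rose: AEP3, which stabilises the messages of ATP synthase subunits, went from 2.92 ± 0.590 to 5.29 ± 0.410 TPM (0.69 ± 0.15, adjusted p = 0.0299). The import and insertion list had 2 rises and 2 falls among 16, with a median of -0.18. SSC1, the Hsp70 of the matrix, rose from 710.7 ± 76.7 to 1014 ± 55.3 TPM, and MDJ1, its partner J-protein, from 7.15 ± 2.28 to 13.99 ± 1.498. MAS2, a subunit of the processing peptidase, fell by 0.47, and PAM18, of the import motor, fell by 0.64.

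Regulators and the cytosolic ribosome completed the comparison. HAP4, the activating subunit of the Hap complex of respiratory genes, rose from 60.0 ± 7.40 to 88.9 ± 10.5 TPM (0.56 ± 0.13, adjusted p = 0.0348), the single call among 10 tested transcription factors (median -0.10). Of 5 genes of mitochondrial transcription and message control 0 were called by limma, with 2 at an unadjusted p under 0.05 and a median of -0.11. PUF3, which in yeast binds messages of nuclear-encoded mitochondrial proteins, was at 34.4 ± 1.22 against 37.2 ± 2.63 TPM, and RPO41, the mitochondrial RNA polymerase, at 16.1 ± 1.20 against 14.3 ± 0.754. Cytosolic ribosomal protein genes, with 3 rises and 2 falls among 132, had a median difference of 0.13. Of the 132, 30 were at an unadjusted p under 0.05 (limma). The strains did not overlap in 38 with dChr above and in 7 with dChr below. All transcripts gave 12.9% above and 21.2% below. RPP2A and RPP1A, of the acidic stalk, rose by 0.45 and 0.36, while RPS28B and RPL22B fell by 1.04 and 0.86, and reads of these last genes can be shared with a second copy.

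**Figure D4:**
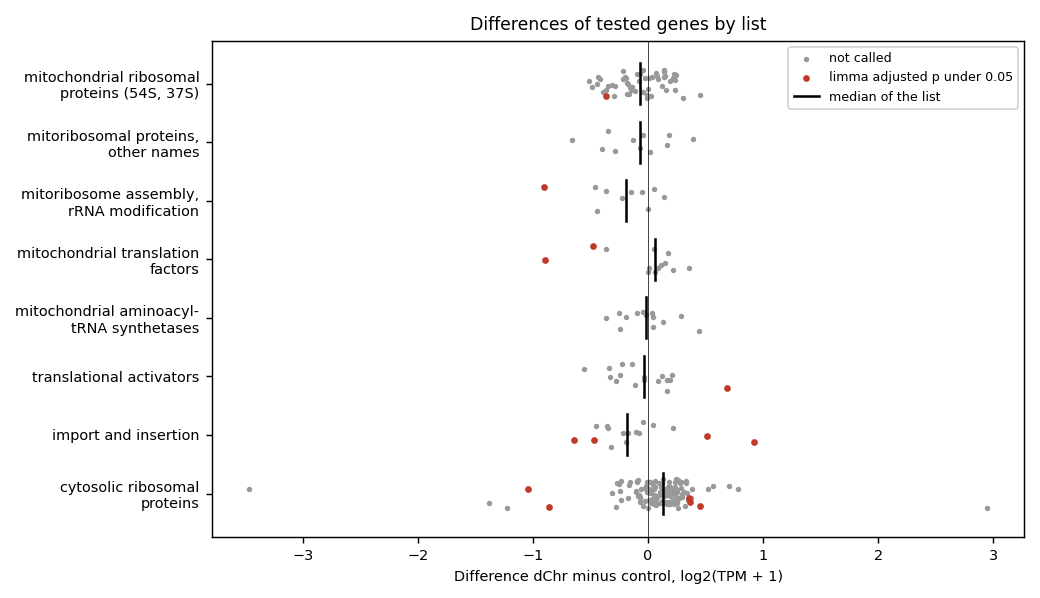
Points are the log2(TPM + 1) differences, dChr minus control, of tested genes in each list, red where the limma adjusted p was under 0.05, and black bars are list medians. Mitochondrial ribosomal proteins hold 1 red point, MRP1 at -0.37, in a band from -0.52 to 0.45, and calls such as MRM1 at -0.91 and MDJ1 at 0.92 lie outside it.

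The RNAs of the mitochondrial genome that enter the same particle gave few usable values. The large ribosomal RNA, 21S, was at 185.7, 183 and 195 TPM in dChr and at 242, 220.4 and 207 in the control, which did not overlap, and it was not called (-0.24 ± 0.09, limma adjusted p = 0.127). The small ribosomal RNA, 15S, was listed at 0 in the 6 libraries, and VAR1 was between 0 and 0.414 TPM in each, so neither could be compared.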

How the data were processed

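RNA-seq of 6 yeast libraries, 3 per strain, was used as deposited by the authors in TPM, in 1 table of 7554 transcripts. The submitters' processing notes name HISAT2 2.0.5, StringTie 2.0, cutadapt 2.6, R 3.6.0, DESeq2 and the sacCer3 build. What each did, and how strand was handled, is not given in the sources used here. Gene names, positions and sequences came from RefSeq R64, matched by locus tag or name (6007 transcripts). Values were analysed as log2(TPM + 1), so differences of low genes are understated. Those averaging 1 TPM or more over the libraries were tested with R 4.3.3 and limma 3.58.1 (trended eBayes, no replicate term), two-sided, with Benjamini-Hochberg adjustment over all transcripts. In simulated data with 200 of 5938 transcripts changed, 3 of 128 calls were false. The members and lists were chosen with earlier results of these data known. Members named by rule were those called, the 8 most positive and 8 most negative differences, the 4 highest and 4 lowest levels per subunit, untested ones, those with a library 4-fold or more from both others of its strain, and MRP8. In other lists these were the called genes (at most 2 per direction) or else the 2 with the highest levels. Further members, and STE2, SAG1, MF(ALPHA)2, COB, VAR1, 21S, 15S and the upstream neighbours, were added after their values were seen. Alternatives were pseudocounts of 0.1 and 5, no filter, a mean of at least 10 TPM, 2 scalings, removal of transcript classes, 2 variance models, removal of each library in turn, and a replicate block. Tables and figures were made with matplotlib 3.10.9, numpy 2.4.6 and pandas 2.3.3 under Python 3.11.15.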

Additional observations from a re-analysis of the deposited data

How the results depend on the processing

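No alternative called more than 3 of the members, while the share of all transcripts called ran from 6.65% to 21.9%. The 1 member called lower became 0 with pseudocounts of 0.1 and 5, without a filter, with quantile normalization, with robust eBayes and with a replicate block, and 3 without mitochondrial, non-coding and assembled transcripts. Removing 1 library at a time gave 0 to 1 member called lower, and this was MRPS18, without control library 1, not MRP1. With median-ratio scaling and without an intensity trend the 1 member called lower was RSM22, not MRP1. The cause of these changes was not tested. With a mean of at least 10 TPM, 18 members were tested and 1 was called, against 21.9% of all transcripts. The 0 members called higher became 2 under quantile normalization and under median-ratio scaling. Over all transcripts, 249 rises became 507 and 555 under these scalings and 113 to 262 when a library was left out. The 544 falls became 926 without mitochondrial, non-coding and assembled transcripts and 282 to 417 when a library was left out. The median difference of the members lay between -0.12 and 0.02 and that of all transcripts between -0.11 and 0.04. The log2 ratio of the summed large subunit moved from -0.10 to 0.029 with quantile normalization. In each alternative 0 to 8 members had another sign, none of them called, and none with a reported size above 0.19.

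With a replicate block in the model, 0 members were called in either direction, and 268 transcripts rose and 566 fell. Libraries that share a number deviated from the mean of their strain with correlations of 0.09, -0.08 and 0.12. Those of unlike number gave -0.21 to 0.1. Deviations from a mean of 3 libraries are tied to each other, so these values cannot decide whether libraries were paired. Depth is unknown, and pseudocounts compress the differences of the many members near 1 TPM.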
